A study of Rattus norvegicus with 32 samples.

Results

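Gene expression in the nucleus accumbens (NAc) was compared with that in the subventricular zone (SVZ) of saline-treated rats. All samples labelled as saline RNA of these regions were taken, 4 from the NAc and 4 from the SVZ, which is 8 of the 32 RNA samples of the series. The animals were adult male Sprague-Dawley rats that received 4 intraperitoneal injections of saline (Sal, 1 mL/kg) at intervals of 2 h, and the brains were collected 24 h after the last injection. Matched samples of rats given methamphetamine (METH, 10 mg/kg per injection), 4 per region, are used below only to see whether a difference between the regions was also present in other libraries. Both regions were taken with a 1 mm puncher from frozen 2-mm brain slices, so each sample is bulk tissue whose borders depend on the punch. Total RNA was depleted of ribosomal RNA before sequencing. Samples are named by region, treatment and replicate number, and values in the text follow the order of replicates 1, 2, 3 and 4.

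The NAc is the ventral part of the striatum. Most of its neurons are GABAergic medium spiny neurons, which carry dopamine receptors and neuropeptides, and a small number of large cholinergic interneurons release acetylcholine among them. The SVZ lines the lateral ventricle beside the striatum and the septum and is a niche of adult neurogenesis. There, astrocyte-like stem cells give rise to dividing progenitors and then to neuroblasts that migrate to the olfactory bulb, and ciliated ependymal cells separate the niche from the ventricle.

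The samples of the regions differed in more than their names. Total counts on genes were 14366609, 14501875, 11094002 and 12743475 reads in the NAc and 21085891, 20221968, 19621412 and 17269245 reads in the SVZ, and these ranges did not overlap. No sequencing run named in the count files held samples of both regions, so the region cannot be told apart from the run and the depth. NAc Sal 1 and NAc Sal 2 carried another run name than NAc Sal 3 and NAc Sal 4. The part of the run in differences between NAc replicates was not tested. Expression is given as counts per 1000000 reads (CPM), with library sizes scaled by the upper quartile, and 1 read was worth 0.0483 to 0.0888 CPM. On the first principal component, which held 43.5% of the variance, SVZ Sal 1 lay at 83.3 and the other samples between -19.3 and 5.4. Marker genes of thalamic neurons summed to 71.15, 131.3, 91.37 and 84.32 CPM in the NAc and 1873, 91.84, 141.5 and 242 CPM in the SVZ. Prkcd, a protein kinase C isoform abundant in thalamic relay neurons, was at 20.9, 25.9, 23.3 and 16.9 CPM in the NAc and 959, 33.6, 98.3 and 125 CPM in the SVZ. The medium spiny neuron genes summed to 1360 CPM in SVZ Sal 1 and to between 4426 and 18500 CPM in the other samples. SVZ Sal 1 thus had the highest thalamic and the lowest medium spiny level of all 8 samples. Of 158 named genes tested with and without it, 29 had a difference of the opposite sign without it. None of these 29 had groups that did not overlap, but a gene with such groups can hardly change sign when a sample is left out. The differences that moved most are given both ways. Markers of other neighbours also differed between replicates: Slc17a7, the vesicular glutamate transporter of cortical neurons, was at 114, 5.17, 60.7 and 688 CPM in the NAc and 258, 208, 88 and 8.91 CPM in the SVZ, highest in NAc Sal 4. No pair of replicates agreed within sampling noise, so each was counted as a separate sample.

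**Figure D1:**
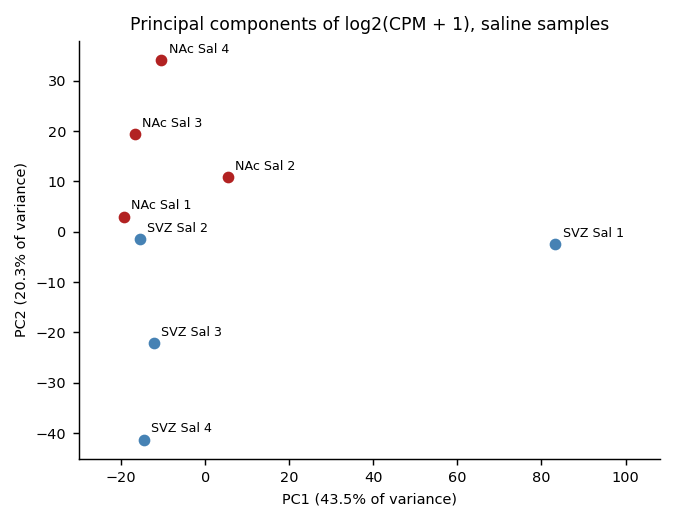
Principal components 1 and 2 of log2(CPM + 1) over 15112 genes, with NAc samples in red and SVZ samples in blue and the share of the variance on each axis. SVZ Sal 1 stands apart at 83.3 on the first component, and on the second component the NAc samples lie between 3 and 34.2 and the SVZ samples between -41.3 and -1.4.

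The first question was which genes differ between the regions when each is compared directly with the other. Differences are log2 fold changes, given with their standard error (SE) and tested with the quasi-likelihood test of edgeR, and positive values are higher in the NAc than in the SVZ. The FDR is the Benjamini-Hochberg adjusted p over all 15112 genes tested. By the rule for region-specific genes, an FDR under 0.01 and a change above 2-fold, 0 genes (0% of those tested) were called in either direction, and the lowest FDR was 0.0568. At an FDR under 0.1, 0 genes were higher in the NAc and 6 (0.0397%) in the SVZ. At an unadjusted p under 0.05, 507 genes (3.35%) were higher in the NAc and 1164 (7.7%) in the SVZ. DESeq2 called 5 genes higher in the NAc and 41 higher in the SVZ by the same rule, among them Plpp4 for the NAc and Hypk, Tceal6, Aebp1, Hist1h1e, Cox17, Sfrp2, Col8a2, Tceal3, Tnc, Fabp7, Prkcd, Zic2, Vim, Bmp7 and Sp8 for the SVZ, whose values follow. Genes are therefore described by their values, and groups are called separate where all 4 samples of a region lie above all 4 of the other. This held for 410 genes higher in the NAc (2.71% of those tested) and 745 higher in the SVZ (4.93%), which are the backgrounds for the counts that follow. Without SVZ Sal 1, 0 genes were called, 1 (0.00656%) was higher in the NAc and 26 (0.171%) were higher in the SVZ at an FDR under 0.1, 758 (4.97%) and 1360 (8.92%) had an unadjusted p under 0.05, and 848 (5.56%) and 1209 (7.93%) were separate. Genes separate and higher in the SVZ had a median transcript length of 1818 bases and those higher in the NAc one of 2802.5 bases, against 2347 bases over all genes tested, and the part of length in these differences was not tested. In bulk tissue, a lower level of a marker can come from fewer cells of its type or from less RNA per cell, which cannot be told apart here.

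Genes of cholinergic neurons were higher in the NAc. Of the 6 listed and tested, 4 were separate, among them Chat, Slc18a3 and Slc5a7, against the 2.71% of all genes, and 5 had an unadjusted p under 0.05. The median difference of the list was 1.72, against -0.008 over all genes. These 3 encode the enzyme that makes acetylcholine, the transporter that loads it into vesicles and the transporter that takes choline back into the terminal. Their promoters, the 250 bases before the gene start in RefSeq on build GRCr8, are shown because these genes work in 1 pathway and were higher together. Capitals mark the motifs CACGTG and CAGCTG, each of which reads the same on both strands.
Chat (chr16:7723417-7723666, minus strand): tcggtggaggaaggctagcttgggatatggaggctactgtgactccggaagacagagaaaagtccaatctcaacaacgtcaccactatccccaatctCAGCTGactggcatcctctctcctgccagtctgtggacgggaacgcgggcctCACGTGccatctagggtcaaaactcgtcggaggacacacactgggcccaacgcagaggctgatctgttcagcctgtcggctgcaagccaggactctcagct
Slc18a3 (chr16:7722815-7723064, minus strand): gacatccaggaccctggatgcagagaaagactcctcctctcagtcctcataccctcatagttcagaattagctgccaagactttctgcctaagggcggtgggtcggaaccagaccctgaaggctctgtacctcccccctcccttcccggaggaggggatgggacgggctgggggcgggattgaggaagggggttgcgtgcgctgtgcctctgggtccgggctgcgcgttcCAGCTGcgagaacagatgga
Slc5a7 (chr9:7953510-7953759, minus strand): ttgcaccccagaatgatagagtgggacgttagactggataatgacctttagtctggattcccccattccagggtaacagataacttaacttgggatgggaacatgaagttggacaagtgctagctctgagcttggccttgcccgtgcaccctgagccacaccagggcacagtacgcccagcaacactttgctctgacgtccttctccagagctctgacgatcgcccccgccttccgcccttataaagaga
CAGCTG was found before Chat and Slc18a3 and in 12.0% of all 33469 promoters, CACGTG was found before Chat and in 5.59% of all promoters, and TAATTA was found in none of the 3 sequences and in 4.86% of all promoters. A match is only a run of letters. In the annotation of the count files (rn6), Slc18a3 (chr16:8682669-8685529) lies within the bounds of Chat (chr16:8577840-8686131) on the same strand.

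Chat was at 19.7, 39.2, 27.8 and 34.9 CPM in the NAc and 0.676, 16.8, 12.7 and 8.08 CPM in the SVZ, a log2 fold change of 1.67 (SE 0.70, FDR 0.434). Slc18a3 was at 13.2, 29.2, 15.2 and 22.3 CPM in the NAc and 1.26, 11, 6.7 and 6.14 CPM in the SVZ, a log2 fold change of 1.67 (SE 0.55, FDR 0.366). For both genes the highest SVZ sample, SVZ Sal 2, lay below the lowest NAc sample, NAc Sal 1. Slc5a7 was at 49.3, 96.3, 64.3 and 74.6 CPM in the NAc and 1.88, 40.3, 19.7 and 21.1 CPM in the SVZ, a log2 fold change of 1.78 (SE 0.68, FDR 0.409). Within each of these genes SVZ Sal 1 was the lowest sample, and the groups stayed separate without it, with differences of 1.28, 1.32 and 1.39 and FDRs of 0.194, 0.205 and 0.185. Lhx8, a transcription factor of forebrain cholinergic neurons, was at 6.63, 37.7, 19.3 and 20.5 CPM in the NAc and 0.193, 7.8, 4.24 and 3.36 CPM in the SVZ, and overlapped through NAc Sal 1 and SVZ Sal 2. Ache, which breaks acetylcholine down and is made by more cell types, was at 73.8, 178, 107 and 112 CPM in the NAc and 101, 79.6, 66.5 and 57.1 CPM in the SVZ and overlapped. In the METH samples the 6 genes were also higher in the NAc on average, but 0 of 6 were separate and the list's median difference was 0.542, with Chat at 14 to 23.4 CPM in the NAc and 4 to 18.2 CPM in the SVZ.

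**Figure D2:**
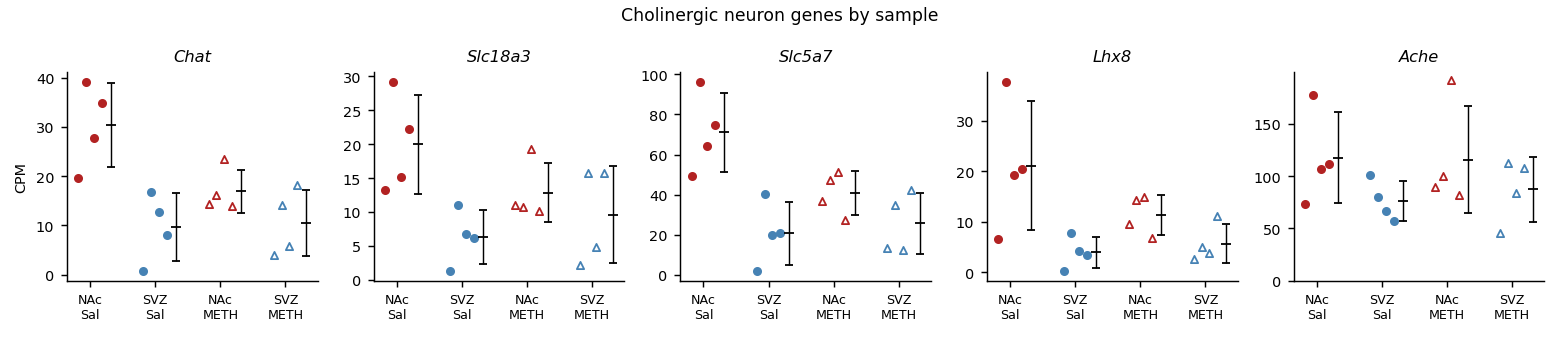
CPM of 5 genes of cholinergic neurons in each sample (4 per group), with filled circles for saline, open triangles for METH, red for the NAc and blue for the SVZ, and black bars for the mean and SD. Chat, Slc18a3 and Slc5a7 do not overlap between the saline groups, while all 5 genes overlap between the METH groups.

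The named genes of lowest p with separate groups, a change above 2-fold and a mean of at least 1 CPM in the higher region included further genes higher in the NAc. They were Plpp4, Slc29a4, Robo3, Amigo2, Kcnj5, Cycs and Ecel1, beside the cholinergic genes Slc18a3 and Slc5a7. Plpp4, a phospholipid phosphatase, was at 5.32, 10.1, 7.46 and 8.02 CPM in the NAc and 2.66, 4.65, 2.95 and 3.72 CPM in the SVZ, a log2 fold change of 1.15 (SE 0.26, FDR 0.226). Slc29a4, a plasma membrane transporter of monoamines and adenosine, was at 12, 26.2, 16.1 and 18.6 CPM in the NAc and 6.95, 11.6, 7.58 and 8.79 CPM in the SVZ. Both were also separate in the METH samples, with log2 fold changes of 1.13 and 0.54. Robo3, Amigo2, Kcnj5 and Ecel1 overlapped there, with log2 fold changes of 0.87, 0.63, 0.40 and 0.52. Cycs was not tested in the METH samples. Amigo2, a neuronal adhesion protein, was at 20.6, 35.2, 24.7 and 25.3 CPM in the NAc and 5.36, 16.4, 16 and 11.4 CPM in the SVZ, with NAc Sal 2 the highest and SVZ Sal 1 the lowest. Kcnj5, a G protein-gated potassium channel subunit, was at 3.78, 9.18, 5.42 and 3.15 CPM in the NAc and 2.8, 2.76, 2.51 and 2.12 CPM in the SVZ. The axon guidance receptor Robo3 was at 1.85, 1.36, 1.33 and 0.974 CPM in the NAc and 0.676, 0.921, 0.542 and 0.531 CPM in the SVZ. Its levels and those of Cycs (1.08, 0.748, 1.51 and 1.42 CPM in the NAc and 0.676, 0.145, 0.542 and 0.472 CPM in the SVZ) lay near 1 CPM, where few reads carry the difference. Cycs is the name of the cytochrome c gene, which has near-identical copies in the genome. The entry counted under it was a short span (chr18:62476383-62476700 in rn6), so it may be such a copy, and its difference may not be that of cytochrome c. Ecel1, a neuronal metallopeptidase, was at 65.6, 134, 73.4 and 95.6 CPM in the NAc and 8.31, 60.2, 42.3 and 22.8 CPM in the SVZ. NAc Sal 2 was the highest of all 8 samples in each of these genes except Robo3 and Cycs, and each kept separate groups without SVZ Sal 1.

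Genes of medium spiny neurons, the main neurons of the striatum, were at high levels in both regions and did not separate. Of 18 listed and tested, 0 were separate in either direction, 16 had a difference above 0, and the list's median difference was 0.275. Drd1, the dopamine receptor of direct pathway neurons, was at 392, 99.5, 233 and 142 CPM in the NAc and 21.7, 216, 230 and 177 CPM in the SVZ, a log2 fold change of 0.43 (SE 0.67, FDR 0.854). Drd2, the dopamine receptor of indirect pathway neurons, was at 363, 85.7, 169 and 65.4 CPM in the NAc and 6.47, 115, 194 and 163 CPM in the SVZ. Ppp1r1b, which encodes the dopamine-regulated phosphatase inhibitor DARPP-32, was at 2510, 487, 1120 and 524 CPM in the NAc and 108, 1010, 2100 and 1230 CPM in the SVZ. Each was lowest in SVZ Sal 1 and highest in NAc Sal 1, and the other SVZ samples lay above NAc Sal 2 and NAc Sal 4. Among the neuropeptides, Tac1, the precursor of substance P, was at 207, 36, 107 and 82.6 CPM in the NAc and 3.19, 122, 116 and 66.4 CPM in the SVZ, a log2 fold change of 0.49 (SE 0.88, FDR 0.872). Penk, the precursor of enkephalin, was at 1210, 367, 742 and 263 CPM in the NAc and 65.7, 638, 1270 and 727 CPM in the SVZ, and Pdyn, the precursor of dynorphin, was at 121, 84.3, 200 and 93.2 CPM in the NAc and 19.7, 136, 120 and 116 CPM in the SVZ. Both were lowest in SVZ Sal 1, and the other SVZ samples lay within the NAc range except SVZ Sal 3 for Penk. The most abundant other members, the signalling genes Adcy5, Arpp21 and Gng7, had log2 fold changes of 0.21, 0.23 and 0.35, and of -0.11, -0.13 and -0.02 without SVZ Sal 1. Without SVZ Sal 1 the median difference of the list was -0.073, with Drd1 at 0.059, Tac1 at 0.089 and Ppp1r1b at -0.32, and without NAc Sal 1 Drd1 and Tac1 were at -0.026 and -0.033. The summed level of the list lay between 8215 and 13560 CPM in SVZ Sal 2, SVZ Sal 3 and SVZ Sal 4, inside the NAc range of 4426 to 18500 CPM.

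Transcription factors of striatal neurons did not separate the regions either, with 0 of 12 separate and a median difference of 0.238. Bcl11b, which sets medium spiny neuron identity, was at 695, 221, 462 and 248 CPM in the NAc and 22.7, 375, 487 and 380 CPM in the SVZ, and Meis2 was at 401, 221, 341 and 177 CPM in the NAc and 34.7, 276, 257 and 271 CPM in the SVZ. The forkhead factors Foxp1 and Foxp2 had log2 fold changes of 0.20 and 0.28. Without SVZ Sal 1 the median difference was -0.04, with Bcl11b at -0.028 and Foxp1 at -0.15. Isl1, a factor of direct pathway and cholinergic neurons, was at 13.6, 13.8, 16.3 and 19 CPM in the NAc and 28.5, 24.5, 16.3 and 17.6 CPM in the SVZ, with the SVZ higher on average (log2 fold change -0.47, SE 0.21, FDR 0.459). Of 8 dopamine and opioid receptor genes tested, 8 had a difference above 0, and 0 were separate. Oprk1, the kappa opioid receptor, was at 22.2, 15.9, 28.9 and 18.1 CPM in the NAc and 0.773, 21.8, 23.3 and 23.4 CPM in the SVZ. The mu opioid receptor gene Oprm1 was at 36.5, 23.5, 24.6 and 17.4 CPM in the NAc and 32, 12.5, 15.2 and 15 CPM in the SVZ, and it was separate only without SVZ Sal 1 (log2 fold change 0.84, FDR 0.237). Of 11 serotonin receptor genes tested, 0 were separate, and Htr2c, the most abundant, was at 157, 190, 314 and 182 CPM in the NAc and 39.4, 205, 178 and 219 CPM in the SVZ. Htr1b, Htr2a and Htr6 had log2 fold changes of 0.47, 0.55 and 0.041, and Oprl1, the nociceptin receptor, had one of 0.52.

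Genes known to be stronger in the accumbens than in the dorsal striatum varied widely between the NAc samples. Of 11 tested, 0 were separate, and the median difference was 0.396. Cartpt, the precursor of CART peptides, was at 0.771, 11.6, 51.5 and 34.5 CPM in the NAc and 4.25, 43.4, 12.4 and 2.24 CPM in the SVZ. Calcr, the calcitonin receptor, was at 0.463, 27.4, 25.6 and 12.4 CPM in the NAc and 0.0483, 6.01, 5.07 and 4.6 CPM in the SVZ, and Dlk1, a non-canonical Notch ligand, was at 1, 53.3, 31.2 and 18.7 CPM in the NAc and 3.91, 18.5, 19 and 13.5 CPM in the SVZ. For all 3, NAc Sal 1 lay below NAc Sal 2, 3 and 4 and within or under the SVZ range. Wfs1, Ndn and Crym, the most abundant members, overlapped, with Crym at 65.3, 66.4, 136 and 125 CPM in the NAc and 10.9, 155, 115 and 112 CPM in the SVZ and log2 fold changes of 0.40 for Wfs1 and 0.20 for Ndn. Of 6 genes stronger in the dorsal striatum, 6 had a difference above 0, and their summed level was 1701, 549.9, 643.4 and 665 CPM in the NAc and 164.1, 540.5, 799.4 and 631.1 CPM in the SVZ, with NAc Sal 1 the highest. Cnr1, the cannabinoid receptor of this list, was at 926, 169, 129 and 202 CPM in the NAc and 47.3, 103, 288 and 198 CPM in the SVZ, and Gda, Reln and Gpr155 had log2 fold changes of 0.51, 0.59 and 0.59. NAc Sal 1 was thus the NAc sample with the least of the accumbens list (310.1 CPM summed, against 778.5 to 922.1 CPM in the other NAc samples) and the most of the dorsal list. In the METH samples 3 of 11 accumbens genes were separate and higher in the NAc (Drd3, Cartpt and Oprk1), against 5.02% of all genes tested there.

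**Figure D3:**
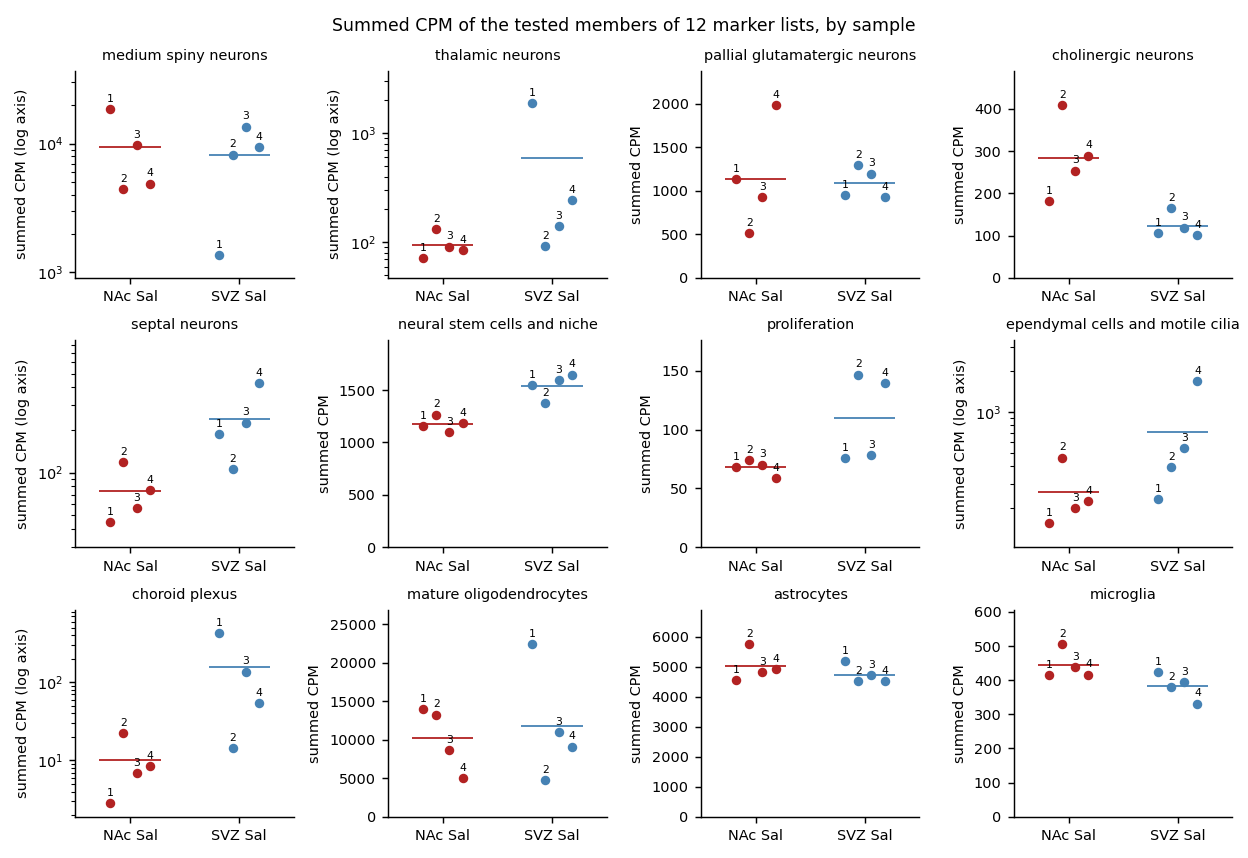
Summed CPM of the tested members of 12 marker lists in NAc Sal samples (red) and SVZ Sal samples (blue), with replicate numbers above the points and the group mean as a line (some panels have a log axis, as labelled). The cholinergic sums and the neural stem cell sums do not overlap between the regions, while the medium spiny, glutamatergic and oligodendrocyte sums do, and SVZ Sal 1 is far above the others for thalamic genes.

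Genes of the neural stem cells and their niche were higher in the SVZ. Of 18 listed and tested, 5 were separate and higher in the SVZ (Fabp7, Tnc, Vim, Thbs4 and Gas1), against 4.93% of all genes, and 10 had an unadjusted p under 0.05 in that direction. The list's median difference was -0.534, and -0.583 without SVZ Sal 1. In the METH samples 2 of 17 tested were separate and higher in the SVZ, against 5.01% of all genes, and 1 was separate and higher in the NAc. The median difference there was -0.369, and Tnc, Vim and Gas1 overlapped. Tnc, an extracellular matrix protein of the niche, was at 24.4, 14.9, 24.4 and 18.9 CPM in the NAc and 61.7, 50.3, 37.2 and 47 CPM in the SVZ, a log2 fold change of -1.25 (SE 0.21, FDR 0.131). Fabp7, a fatty acid binding protein of radial glia and astrocytes, was at 17.8, 15.5, 12.8 and 9.59 CPM in the NAc and 29, 38.8, 27.5 and 39.6 CPM in the SVZ, a log2 fold change of -1.28 (SE 0.21, FDR 0.131). Both gave narrow ranges within each region, and without SVZ Sal 1 the differences were -1.12 and -1.34. Vim, an intermediate filament of stem and ependymal cells, was at 26.4, 45, 17.6 and 16 CPM in the NAc and 55.6, 85.8, 65.1 and 136 CPM in the SVZ, a log2 fold change of -1.70 (SE 0.40, FDR 0.248). Thbs4, a matrix protein of SVZ astrocytes, was at 0.385, 0.136, 0.266 and 0.899 CPM in the NAc and 1.5, 1.6, 0.936 and 1.06 CPM in the SVZ, so the difference rests on few reads. Gas1, a Hedgehog co-receptor, was at 4.93, 5.71, 4.26 and 4.12 CPM in the NAc and 9.47, 7.56, 7.53 and 6.55 CPM in the SVZ. For Vim, SVZ Sal 4 was the highest and NAc Sal 2 came nearest to the SVZ.

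Several genes of stem cells that other glia also express overlapped. Gfap, the filament of astrocytes and astrocyte-like stem cells, was at 237, 290, 231 and 281 CPM in the NAc and 685, 257, 469 and 414 CPM in the SVZ, a log2 fold change of -0.81 (SE 0.27, FDR 0.366). It overlapped through SVZ Sal 2, and SVZ Sal 1 was the highest. Sox2, a pluripotency and stem cell factor, was at 48.6, 68.7, 58.4 and 47.5 CPM in the NAc and 65.5, 78.5, 68.3 and 114 CPM in the SVZ, and Sox9, a factor of glia and stem cells, was at 60.3, 71, 68.2 and 57.7 CPM in the NAc and 66.6, 89.8, 82.3 and 126 CPM in the SVZ. The latter was separate without SVZ Sal 1, with a log2 fold change of -0.63. Egfr, the growth factor receptor of activated stem cells, was at 20.7, 17.5, 23.5 and 19.8 CPM in the NAc and 11.4, 22.7, 21.1 and 27.4 CPM in the SVZ. Slc1a3, a glutamate transporter of astrocytes and radial glia, was at 620, 645, 578 and 648 CPM in the NAc and 482, 646, 704 and 618 CPM in the SVZ, with a log2 fold change of 0.023. Prom1, a membrane protein of ciliated and stem cells, had the opposite direction, at 18.5, 13.9, 16.3 and 13.9 CPM in the NAc and 9.37, 14.2, 10.7 and 11.4 CPM in the SVZ, and overlapped. Nes, the filament nestin, was at 2.47, 1.9, 2.13 and 2.55 CPM in the NAc and 2.03, 3.63, 2.86 and 2.48 CPM in the SVZ.

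**Figure D4:**
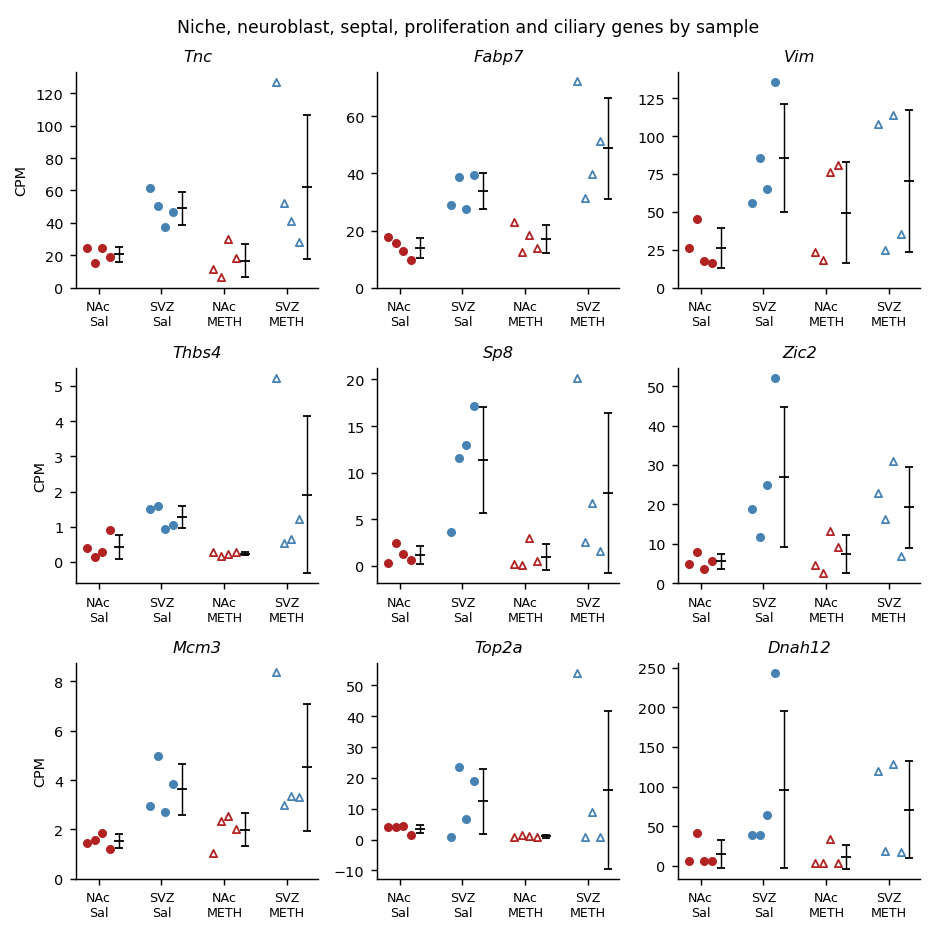
CPM of 9 genes of the niche, neuroblasts, septum, cell division and motile cilia in each sample (4 per group), with filled circles for saline, open triangles for METH, red for the NAc and blue for the SVZ, and black bars for the mean and SD. In saline, Tnc, Fabp7, Vim, Thbs4, Sp8, Zic2 and Mcm3 do not overlap between the regions, while Top2a and Dnah12 do.

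Neuroblast genes gave 1 separate gene among 12 tested. Sp8, a zinc finger factor of migrating interneuron precursors, was at 0.308, 2.45, 1.24 and 0.6 CPM in the NAc and 3.62, 11.6, 13 and 17.2 CPM in the SVZ, a log2 fold change of -3.28 (SE 0.66, FDR 0.198). Its SVZ levels were lowest in SVZ Sal 1, and the difference was -3.57 without that sample. Dlx2, a homeobox factor of the same precursors, was at 3.93, 5.17, 3.73 and 3 CPM in the NAc and 3.43, 16.6, 6.99 and 13.7 CPM in the SVZ and was separate only without SVZ Sal 1 (log2 fold change -1.65, FDR 0.125). Dcx, the microtubule protein of migrating neuroblasts, was at 17.9, 61.4, 49.1 and 68.2 CPM in the NAc and 19.8, 93.5, 33.8 and 71.4 CPM in the SVZ and overlapped over most of its range (log2 fold change -0.15, SE 0.54, FDR 0.94). Cd24, a surface protein of neuroblasts and ependymal cells, was at 26.1, 22, 28.9 and 25 CPM in the NAc and 10, 49.5, 30.8 and 61.1 CPM in the SVZ, and Igfbpl1 was at 3.47, 7.27, 5.42 and 3.37 CPM in the NAc and 1.16, 8.97, 9.06 and 16.5 CPM in the SVZ. Both were lowest of all 8 samples in SVZ Sal 1 and separate without it. Tubb3, Ncam1 and Robo2, which mature neurons also express, overlapped, with log2 fold changes of 0.13, 0.39 and 0.37. Of the list, 4 genes were separate and higher in the SVZ without SVZ Sal 1, against 7.93% of all genes in that fit.

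Genes of cell division lay on the SVZ side throughout. Of 15 tested, 15 had a difference below 0, and the median difference was -0.832. Among them 3 were separate (Mcm2, Mcm3 and Birc5), against 4.93% of all genes. Mcm3, a subunit of the replicative helicase, was at 1.46, 1.56, 1.86 and 1.2 CPM in the NAc and 2.95, 4.99, 2.71 and 3.84 CPM in the SVZ, a log2 fold change of -1.25 (SE 0.27, FDR 0.224), and its partner Mcm2 was at 4.7, 5.44, 4.17 and 4.12 CPM in the NAc and 8.6, 7.12, 6.35 and 9.91 CPM in the SVZ. Birc5, a mitotic protein, was at 0.771, 0.544, 0.977 and 0.675 CPM in the NAc and 1.55, 2.23, 0.985 and 2.07 CPM in the SVZ. Top2a, the topoisomerase of dividing cells, was at 4.01, 3.94, 4.35 and 1.35 CPM in the NAc and 0.773, 23.4, 6.5 and 18.9 CPM in the SVZ, and Mki67, which marks cycling cells, was at 9.1, 10.9, 14.2 and 11.7 CPM in the NAc and 3.43, 31, 13.1 and 29.2 CPM in the SVZ. Both were highest in SVZ Sal 2 and SVZ Sal 4 and lowest of all 8 samples in SVZ Sal 1. Pcna, which is also used in DNA repair, was at 23.7, 23.8, 20.1 and 16.9 CPM in the NAc and 26.7, 25.2, 21.5 and 23.7 CPM in the SVZ, and Mcm6 and Tyms, which serve DNA replication and nucleotide synthesis, had log2 fold changes of -0.30 and -0.58. Without SVZ Sal 1, 9 of 15 were separate and higher in the SVZ, against 7.93% of all genes in that fit. There 12 had an unadjusted p under 0.05, against 8.92% of all genes, and the median difference was -1.09. In the METH samples 2 of 13 tested were separate in that direction, against 5.01% of all genes, with a median difference of -1.05.

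Signals of the niche were mixed. Of 16 genes of the Hedgehog, BMP and Wnt pathways, 2 were separate and higher in the SVZ, against 4.93% of all genes. Both encode BMP ligands. Bmp7 was at 0.694, 0.748, 0.622 and 0.825 CPM in the NAc and 4.01, 5.23, 1.58 and 1.77 CPM in the SVZ, a log2 fold change of -2.11 (SE 0.44, FDR 0.21), and Bmp6 was at 8.94, 5.91, 8.88 and 5.17 CPM in the NAc and 11.4, 10.7, 11.8 and 14.8 CPM in the SVZ. Both overlapped in the METH samples, with log2 fold changes of -0.82 for Bmp7 and -0.47 for Bmp6. There Bmp7 was highest in SVZ METH 3 (15.6 CPM) and NAc METH 4 (8.12 CPM). Noggin (Nog), the BMP antagonist of the niche, was at 4.01, 5.44, 4.26 and 11.2 CPM in the NAc and 9.42, 11.3, 8.62 and 8.91 CPM in the SVZ and overlapped. Shh, the Hedgehog ligand, was on the NAc side, at 3.01, 10.3, 3.82 and 5.02 CPM in the NAc and 4.64, 1.7, 2.17 and 1.24 CPM in the SVZ, and was separate without SVZ Sal 1 (log2 fold change 1.70, FDR 0.228). Its receptor gene Ptch1 was at 138, 241, 186 and 169 CPM in the NAc and 110, 132, 114 and 146 CPM in the SVZ, with the NAc higher on average (log2 fold change 0.55, SE 0.18, FDR 0.366). Axin2, a target of Wnt signalling, was at 28.3, 30, 38.8 and 29.5 CPM in the NAc and 33.6, 32.9, 38.3 and 51.3 CPM in the SVZ, and Gli3, a Hedgehog effector, was at 57.2, 38.8, 54 and 51.9 CPM in the NAc and 21.2, 48.1, 45.7 and 61.6 CPM in the SVZ. Wnt7a, a Wnt ligand, had a log2 fold change of 0.14. Of 15 Notch pathway genes tested, 1 was separate, with the NAc higher: Heyl, a target of Notch in vascular cells and astrocytes, was at 29.8, 47.7, 37 and 40.1 CPM in the NAc and 26.5, 27.6, 25.1 and 21.7 CPM in the SVZ. The receptor genes Notch1 and Notch2 were at 118, 132, 117 and 102 CPM in the NAc and 108, 117, 128 and 157 CPM in the SVZ and at 90.1, 85, 82.3 and 63.6 CPM in the NAc and 119, 84.8, 86.8 and 103 CPM in the SVZ, and the Notch list had a median difference of -0.01. The ligands Dner and Jag2 had log2 fold changes of 0.17 and 0.30, and Rbpj, the nuclear effector of the pathway, had one of 0.026.

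Genes of septal neurons, the neurons on the medial side of the lateral ventricle, were higher in the SVZ. Of 7 listed and tested, 7 had a difference below 0, with a median of -1.85, or -1.90 without SVZ Sal 1. Among them 3 were separate, including Zic2 and Zic5, against 4.93% of all genes. The Zic genes encode zinc finger factors of the septum, the thalamus and the olfactory bulb, and some SVZ progenitors carry them too. Zic2 was at 4.93, 7.95, 3.55 and 5.62 CPM in the NAc and 18.8, 11.8, 25 and 52.2 CPM in the SVZ, a log2 fold change of -2.28 (SE 0.47, FDR 0.205). Zic5, which lies 9904 bases from Zic2 on the opposite strand in rn6, was at 2.08, 1.97, 1.86 and 1.72 CPM in the NAc and 3.19, 2.96, 8.08 and 18.3 CPM in the SVZ, a log2 fold change of -2.08 (SE 0.59, FDR 0.318). Both were highest in SVZ Sal 4. Zic1 was at 9.56, 43.2, 15.5 and 24.1 CPM in the NAc and 131, 30.4, 84.9 and 159 CPM in the SVZ, a log2 fold change of -2.13 (SE 0.59, FDR 0.306), and Zic4, its neighbour, was at 0.925, 8.91, 2.84 and 3.9 CPM in the NAc and 13.3, 6.49, 12.1 and 28.3 CPM in the SVZ. These overlapped only because NAc Sal 2 exceeded SVZ Sal 2. Prdm16, a chromatin factor of stem cells and ependymal cells, was at 15.3, 20.9, 14.8 and 13.9 CPM in the NAc and 6.71, 28, 42.3 and 81 CPM in the SVZ, and Trpc4, a cation channel of the lateral septum, was at 9.4, 28.3, 12.1 and 21.1 CPM in the NAc and 1.45, 19.5, 43.3 and 70.7 CPM in the SVZ. In these last 2 genes SVZ Sal 1 was the lowest sample and SVZ Sal 4 the highest.

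Ciliary genes were higher in the SVZ on average, but no member separated the regions. Of 25 tested genes of ependymal cells and motile cilia, 24 had a difference below 0 and 13 an unadjusted p under 0.05, against the 7.7% of all genes, with a median difference of -2.05. Their summed level was 153.8, 464.8, 198 and 222.8 CPM in the NAc and 231.4, 396.1, 542.7 and 1682 CPM in the SVZ. SVZ Sal 4 was the highest, and NAc Sal 2 exceeded SVZ Sal 1 and SVZ Sal 2. Dnah12, a heavy chain of axonemal dynein, was at 6.63, 41.2, 6.48 and 6.22 CPM in the NAc and 38.9, 38.8, 64.4 and 243 CPM in the SVZ, a log2 fold change of -2.66 (SE 0.89, FDR 0.367). Hydin, a protein of the central pair of the axoneme, was at 14.7, 75.4, 22.1 and 24.1 CPM in the NAc and 21.6, 51.4, 68.6 and 247 CPM in the SVZ, and Dnah9 was at 6.17, 49, 24.7 and 39.7 CPM in the NAc and 15.5, 39.2, 52.1 and 184 CPM in the SVZ. Rfx3, a ciliogenesis factor that other cells also express, and Ccdc39, an axonemal ruler protein, had log2 fold changes of 0.33 and -0.24. The list's median difference was -3.102 without NAc Sal 2, -1.175 without SVZ Sal 4 and -2.28 without SVZ Sal 1, in the last case with 2 of 25 separate (Rsph1 and Tekt1).

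Choroid plexus genes also lay on the SVZ side. Of 9 tested, 8 had a difference below 0, and the median difference was -2.82. Among them 3 were separate (Folr1, Kcnj13 and Aqp1), against 4.93% of all genes. Ttr, the thyroid hormone carrier made by the plexus, was at 0.231, 6.8, 0.178 and 0.375 CPM in the NAc and 336, 1.16, 106 and 26.3 CPM in the SVZ, a log2 fold change of -5.89 (SE 1.73, FDR 0.333). Aqp1, the water channel of the plexus, was at 0.0771, 0.34, 0.0888 and 0.525 CPM in the NAc and 3.48, 0.872, 2.31 and 0.944 CPM in the SVZ, and Folr1, a folate receptor, was at 0.0771, 1.43, 0 and 0 CPM in the NAc and 5.84, 1.65, 3.59 and 6.43 CPM in the SVZ. Ttr was high in SVZ Sal 1, SVZ Sal 3 and SVZ Sal 4 and lower in SVZ Sal 2 than in NAc Sal 2. Clic6 and Kl were at 0.154, 4.08, 0.266 and 1.35 CPM in the NAc and 22.4, 2.47, 8.86 and 10.9 CPM in the SVZ and at 0.463, 2.72, 3.02 and 2.77 CPM in the NAc and 26.2, 2.42, 8.72 and 2.48 CPM in the SVZ, and F5, a coagulation factor, was at 0.231, 0.68, 0 and 0.825 CPM in the NAc and 22.3, 0.727, 3.94 and 3.42 CPM in the SVZ, a log2 fold change of -4.06. Without SVZ Sal 1 the list's median difference was -2.297, and the differences were -4.48 for Ttr, -1.02 for Kl, where it had been -2.15, and -2.57 for F5. The same 3 genes were separate, which leaving out a sample all but ensures. In the METH samples 0 of 9 tested were separate, and the median difference was -5.195. Otx2, a defining factor of the plexus, was listed at 0 in all 8 samples. How far plexus tissue in the punches set other differences was not tested.

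Among the genes with the lowest p on the SVZ side, only Tnc and Fabp7 belonged to a marker list used here. By the same rule as for the NAc, the genes were Hypk, Tceal6, Aebp1, Hist1h1e, Cox17, Sfrp2, Col8a2, Tceal3, Tnc and Fabp7. Whether the others follow a cell type was not tested. Hypk, which encodes a subunit of an N-terminal acetyltransferase complex, was at 9.87, 10.8, 7.99 and 7.2 CPM in the NAc and 22.3, 24.7, 22.2 and 21.5 CPM in the SVZ, a log2 fold change of -1.34 (SE 0.15, FDR 0.0599). Tceal6 and Tceal3, which belong to a family of elongation factor-like proteins, were at 4.7, 8.91, 6.84 and 7.42 CPM in the NAc and 23.5, 19.9, 21 and 17.9 CPM in the SVZ and at 16, 11.4, 14.6 and 11.8 CPM in the NAc and 23.5, 28.3, 37.2 and 26.4 CPM in the SVZ. Their FDRs were 0.0928 and 0.131. The members of this family are close paralogs, so how their reads were divided is uncertain. Aebp1, a matrix-associated carboxypeptidase-like protein, was at 11.2, 12.8, 9.24 and 14.3 CPM in the NAc and 30.1, 42.3, 26.6 and 39.6 CPM in the SVZ, a log2 fold change of -1.54 (SE 0.20, FDR 0.0928). Sfrp2, a secreted modulator of Wnt signalling, was at 1.62, 2.24, 2.04 and 1.87 CPM in the NAc and 9.32, 4.89, 7.04 and 4.54 CPM in the SVZ, and Col8a2, a collagen chain, was at 1.23, 1.84, 0.977 and 0.75 CPM in the NAc and 5.07, 3.88, 3.74 and 4.72 CPM in the SVZ. Hist1h1e, a linker histone of a multigene family, was at 25.9, 27.5, 21 and 23.8 CPM in the NAc and 51.4, 66.4, 44.3 and 48.7 CPM in the SVZ, and Cox17, a copper chaperone of cytochrome c oxidase, was at 17.9, 13.8, 14.5 and 12.2 CPM in the NAc and 43, 31.9, 39.7 and 27.8 CPM in the SVZ. All 10 kept separate groups without SVZ Sal 1. Of the 10, Hypk, Tceal6, Hist1h1e, Tceal3 and Fabp7 were also separate in the METH samples in the same direction. The other 5 overlapped there, among them Aebp1 at 6.07 to 51.2 CPM in the NAc and 19.4 to 40.4 CPM in the SVZ. Col8a2 was at 1.3, 2.15, 52.7 and 1.04 CPM in SVZ METH 1, 2, 3 and 4, highest in the sample that was also highest for Ttr. The counted lengths of Hypk, Cox17, Tceal3, Tceal6, Hist1h1e, Fabp7 and Sfrp2 were 390, 422, 600, 600, 660, 833 and 2342 bases, under the 2347-base median of the genes tested, and those of Aebp1, Col8a2 and Tnc were 3828, 4196 and 7213 bases, above it.

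Neuronal genes of neighbouring regions varied between samples, and several saline differences rested on 1 of them. Of 6 thalamic genes, 6 had a difference below 0, with a median of -2.12, which became -0.007 without SVZ Sal 1. Prkcd alone was separate, with a log2 fold change of -3.80 (SE 0.99, FDR 0.281) and of -1.98 without SVZ Sal 1 (FDR 0.138). The thalamic factor Tcf7l2 was at 12.3, 39.4, 25 and 16.3 CPM in the NAc and 267, 18.9, 14.4 and 45.4 CPM in the SVZ, and Slc17a6, the glutamate transporter of subcortical neurons, was at 0.54, 36.8, 16 and 18.3 CPM in the NAc and 315, 13.3, 2.51 and 34.8 CPM in the SVZ. Rora, a nuclear receptor of thalamic neurons, was at 30.5, 20.9, 21.8 and 25.3 CPM in the NAc and 213, 17.6, 21.4 and 29.4 CPM in the SVZ. In all 3, SVZ Sal 1 was the highest and the other samples of both regions overlapped. Their log2 fold changes were -1.89, -2.35 and -1.52, and -0.17, 0.096 and 0.11 without SVZ Sal 1. High thalamic levels were not limited to that sample, since in the METH samples the list's median difference was -2.172 and Prkcd was again separate. Prkcd was at 80.3, 815, 209 and 603 CPM in SVZ METH 1, 2, 3 and 4, and at 22, 22.7, 14.1 and 27.9 CPM in the NAc METH samples. Tcf7l2 was at 25.4, 262, 97.6 and 150 CPM and Slc17a6 at 13.9, 265, 134 and 164 CPM in the same SVZ METH samples, and both overlapped with the NAc METH samples. Of 9 pallial glutamatergic genes tested, 0 were separate, and their median difference was 0.439, or -1.236 without NAc Sal 4. Camk2a and Tbr1, a kinase and a transcription factor of cortical projection neurons, had log2 fold changes of 0.048 and 1.24. Rtn4rl2, a Nogo receptor homolog that is no member of the list, was at 1.16, 0.68, 1.78 and 22.1 CPM in the NAc and 0.0483, 5.77, 3.3 and 0.236 CPM in the SVZ, highest in NAc Sal 4. Its log2 fold change was 1.45 (SE 1.39, FDR 0.747), and -0.976 without NAc Sal 4. Neurod1, a neurogenic factor, did not pass the filter on low counts and was at 0.385, 0.476, 0.533 and 7.72 CPM in the NAc and 0.58, 2.42, 1.53 and 0.177 CPM in the SVZ. Of 11 interneuron genes tested, 0 were separate. The GABA-synthesizing enzymes Gad1 and Gad2 were at 526, 649, 546 and 492 CPM in the NAc and 495, 517, 497 and 556 CPM in the SVZ and at 759, 1150, 1040 and 775 CPM in the NAc and 684, 998, 812 and 904 CPM in the SVZ. Their log2 fold changes were 0.10 (SE 0.12) and 0.13 (SE 0.19). Nos1 had a log2 fold change of 0.71. Cck, a neuropeptide of interneurons and of cortical and thalamic neurons, was at 20.8, 5.03, 13.5 and 80.8 CPM in the NAc and 357, 36.3, 22.4 and 17.9 CPM in the SVZ, a log2 fold change of -1.85, which became 0.23 without SVZ Sal 1. In the METH samples Cck was separate, with a log2 fold change of -2.95. Pvalb, of fast-spiking interneurons and of thalamic reticular neurons, was at 8.33, 16.4, 8.35 and 11.8 CPM in the NAc and 325, 18.4, 10.4 and 7.38 CPM in the SVZ, with a log2 fold change of -3.00, or -0.10 without SVZ Sal 1. Sst, the somatostatin precursor, was at 50.4, 63.3, 81.9 and 65.3 CPM in the NAc and 5.65, 115, 82.3 and 50.7 CPM in the SVZ. Hypothalamic peptide genes were led by Trh, at 3.01, 9.11, 4.08 and 2.02 CPM in the NAc and 150, 2.91, 3.45 and 4.66 CPM in the SVZ, and 0 of 5 tested were separate, with a median difference of -0.413, or 0.318 over the same 5 without SVZ Sal 1. Oxt and Avp, which code for oxytocin and vasopressin, did not pass the filter on low counts with all 8 samples but did without that sample, and over the 7 genes then tested the median was 0.923. Trh had a log2 fold change of -3.13, or 0.32 without SVZ Sal 1. Pomc, Gal and Crh had log2 fold changes of -0.41, 1.84 and 1.29. Among 10 pan-neuronal genes 1 was separate, Eno2, at a level near 1 CPM (1.39, 1.02, 1.33 and 0.974 CPM in the NAc and 0.821, 0.969, 0.886 and 0.59 CPM in the SVZ). Map2 was at 1750, 2120, 2090 and 2550 CPM in the NAc and 1270, 2190, 1690 and 1660 CPM in the SVZ, and Snap25 at 985, 813, 742 and 905 CPM in the NAc and 1090, 712, 572 and 622 CPM in the SVZ. Whether the entry counted as Eno2 (chr9:20251521-20260505 in rn6) reads the neuronal enolase gene is uncertain at so low a level. Syt1, a calcium sensor of vesicle release, and Nefl, a neurofilament, had log2 fold changes of 0.25 and -0.37.

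Among glia, oligodendrocyte genes varied widely within each region. Of 18 tested, 0 were separate, and the median difference was -0.264, or 0.226 without SVZ Sal 1. Mbp, a main myelin protein, was at 5840, 5500, 3610 and 1980 CPM in the NAc and 9770, 1900, 4310 and 3810 CPM in the SVZ, a log2 fold change of -0.23 (SE 0.52, FDR 0.903). Mobp and Cnp, also of myelin, had log2 fold changes of -0.38 and -0.26. Without SVZ Sal 1 the differences of Mbp, Mobp and Cnp were 0.34, 0.20 and 0.18. Mbp was highest in SVZ Sal 1 and lowest in SVZ Sal 2 and NAc Sal 4. Of 7 oligodendrocyte precursor genes tested, 0 were separate, and Pdgfra, their growth factor receptor, was at 93, 132, 103 and 98.5 CPM in the NAc and 118, 105, 101 and 96.6 CPM in the SVZ. Bcas1, Olig1 and Cspg4 had log2 fold changes of -0.51, -0.15 and 0.28, and the first 2 were at 0.19 and 0.24 without SVZ Sal 1. Of 13 astrocyte genes, 0 were separate. Aqp4, their water channel, was at 510, 617, 592 and 509 CPM in the NAc and 653, 452, 523 and 676 CPM in the SVZ, and Glul, glutamine synthetase, was at 1020, 1140, 1020 and 1230 CPM in the NAc and 1060, 963, 971 and 792 CPM in the SVZ. Agt, angiotensinogen, which astrocytes make at levels that differ between brain regions, was at 59.2, 348, 148 and 153 CPM in the NAc and 275, 55, 64.1 and 68.3 CPM in the SVZ, with NAc Sal 2 the highest, a log2 fold change of 0.62, or 1.504 without SVZ Sal 1. Slc1a2, S100b and Aldoc had log2 fold changes of -0.13, -0.24 and 0.035.

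Microglial genes gave 3 separate members of 12, all higher in the NAc, against 2.71% of all genes. Cx3cr1, the fractalkine receptor, was at 22.6, 29, 24.6 and 22.4 CPM in the NAc and 17, 16.9, 16.1 and 18.2 CPM in the SVZ, a log2 fold change of 0.53 (SE 0.11, FDR 0.224). Csf1r, the receptor that microglia need to survive, was at 101, 128, 109 and 104 CPM in the NAc and 92.3, 87, 91.7 and 78.8 CPM in the SVZ. Both differences were under 2-fold, and without SVZ Sal 1 Cx3cr1 and Csf1r were the 2 members of the list that were separate. Ctss, a lysosomal protease, had a log2 fold change of 0.075. The complement genes C1qa, C1qb and C1qc overlapped, with log2 fold changes of 0.10, -0.14 and 0.052. Of 10 endothelial genes tested, 10 had a difference above 0 and 2 were separate, against 2.71% of all genes. Flt1, a receptor for vascular endothelial growth factor, was at 71.1, 51.7, 49.3 and 40.1 CPM in the NAc and 29.4, 37.8, 29.4 and 34.1 CPM in the SVZ, a log2 fold change of 0.70 (SE 0.18, FDR 0.277), and Esam, a junction protein, was at 10.5, 7.14, 6.48 and 5.7 CPM in the NAc and 4.64, 5.43, 5.22 and 4.31 CPM in the SVZ. Slc2a1, the glucose transporter of the blood-brain barrier, was at 127, 112, 92.4 and 87.3 CPM in the NAc and 89.8, 92.1, 101 and 114 CPM in the SVZ and overlapped, and Vwf and Abcb1a had log2 fold changes of 0.32 and 0.26. Of 9 genes of mural cells and fibroblasts tested, 1 was separate, with the SVZ higher, and the median difference was -0.474, or -0.178 without SVZ Sal 1. Igf2, a growth factor of the meninges and the choroid plexus, was at 18.9, 18.5, 14 and 13.3 CPM in the NAc and 41.7, 48.1, 31.4 and 19.3 CPM in the SVZ, a log2 fold change of -1.12 (SE 0.28, FDR 0.266). The collagen gene Col3a1 was at 5.86, 4.89, 4.71 and 4.95 CPM in the NAc and 14.6, 19.8, 12.4 and 4.6 CPM in the SVZ and overlapped through SVZ Sal 4, and the mural genes Pdgfrb, Rgs5 and Myh11 had log2 fold changes of 0.13, 0.32 and -0.47. Cldn5, a junction protein of brain endothelium, was listed at 0 in all 8 samples.

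Genes of neuronal activity did not separate the regions. Of 16 immediate early genes tested, 0 were separate, 8 had a difference above 0 and 8 below, and the median difference was 0.007. Fos was at 6.48, 5.17, 2.93 and 9.29 CPM in the NAc and 13.7, 6.3, 17.6 and 26.9 CPM in the SVZ, a log2 fold change of -1.43 (SE 0.47, FDR 0.366). Npas4, a neuron-specific activity-dependent factor, was at 6.09, 5.37, 3.46 and 13.3 CPM in the NAc and 2.41, 8.63, 43 and 52.7 CPM in the SVZ, with SVZ Sal 3 and SVZ Sal 4 above all others. Egr1 was at 286, 59.9, 104 and 116 CPM in the NAc and 35.2, 136, 160 and 192 CPM in the SVZ, and Homer1, a scaffold of the synapse, was at 201, 75.9, 147 and 110 CPM in the NAc and 56.6, 114, 143 and 117 CPM in the SVZ. Both were highest in NAc Sal 1. Arc and Egr3 had log2 fold changes of -0.25 and 0.23. Among 7 heat shock genes tested 1 was separate: Hsp90aa1, an inducible chaperone, was at 28.2, 33.2, 26.6 and 23.6 CPM in the NAc and 68.5, 40.3, 42.6 and 42 CPM in the SVZ, a log2 fold change of -0.79 (SE 0.20, FDR 0.267). Hspa8, the constitutive chaperone, was at 615, 684, 546 and 531 CPM in the NAc and 860, 590, 588 and 528 CPM in the SVZ and overlapped, as did Hsph1, Hspa5 and Dnajb1, with log2 fold changes of -0.11, -0.084 and 0.13.

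Of 5 P2X receptor genes tested, 1 was separate, with the SVZ higher. P2rx4, an ATP-gated channel of microglia and neurons, was at 7.86, 9.38, 9.41 and 9.07 CPM in the NAc and 19.6, 9.89, 12.2 and 15.2 CPM in the SVZ, a log2 fold change of -0.67 (SE 0.21, FDR 0.355). P2rx6, another subunit, was at 3.85, 14.5, 5.15 and 6.15 CPM in the NAc and 23.1, 9.93, 15.1 and 45.4 CPM in the SVZ, a log2 fold change of -1.65 (SE 0.56, FDR 0.374). It overlapped because NAc Sal 2 exceeded SVZ Sal 2, SVZ Sal 4 was the highest, and in the METH samples it was separate, at 4.47 to 7.76 CPM in the NAc and 12.8 to 27.6 CPM in the SVZ. P2rx7 was at 10, 11.4, 11.1 and 8.92 CPM in the NAc and 14.2, 9.16, 11.9 and 18.4 CPM in the SVZ, and P2rx3 had a log2 fold change of 0.14. Of 13 mitochondrially encoded genes, 0 were separate. Mt-co1, a subunit of cytochrome c oxidase, was at 22800, 16200, 14800 and 13300 CPM in the NAc and 10200, 10900, 6880 and 15800 CPM in the SVZ, a log2 fold change of 0.61 (SE 0.30, FDR 0.496), and Mt-co2, Mt-cyb and Mt-atp6 had log2 fold changes of 0.016, 0.32 and -0.42. The summed level was 71260, 49540, 37510 and 39680 CPM in the NAc and 38830, 46090, 28400 and 68300 CPM in the SVZ.

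The METH samples, which are other libraries of the same regions, gave a second view of the genes with separate saline groups. Some of them stood apart too. NAc METH 3 held 898 CPM of Oxt and 681 CPM of Avp, against at most 0.541 CPM in the other NAc METH samples, and 7.41 CPM of Drd1, against 193 to 229 CPM. SVZ METH 3 held 7550 CPM of Ttr, and SVZ METH 2 and SVZ METH 4 were the highest for Prkcd. Their part in the following counts was not tested. Of 408 genes that were separate and higher in the NAc in saline and were tested in METH, 384 (94.1%) had a difference above 0 in METH, against 50.1% of the 14855 genes tested in both, and 150 (36.8%) were again separate, against 4.95%. Of 736 genes higher in the SVZ, 706 (95.9%) had a difference below 0 in METH, against 49.9%, and 288 (39.1%) were again separate, against 5.05%. No gene was separate in the opposite direction. The METH samples of the regions also differed in run and depth, with totals of 11802864 to 14156910 reads in the NAc and 17379234 to 21869773 reads in the SVZ, so this shared direction cannot be told apart from the run. In METH 0 genes were called as well, with 43 (0.284%) higher in the NAc and 38 (0.251%) higher in the SVZ at an FDR under 0.1, and with 1322 (8.73%) higher in the NAc and 1628 (10.7%) higher in the SVZ at an unadjusted p under 0.05.

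**Figure D5:**
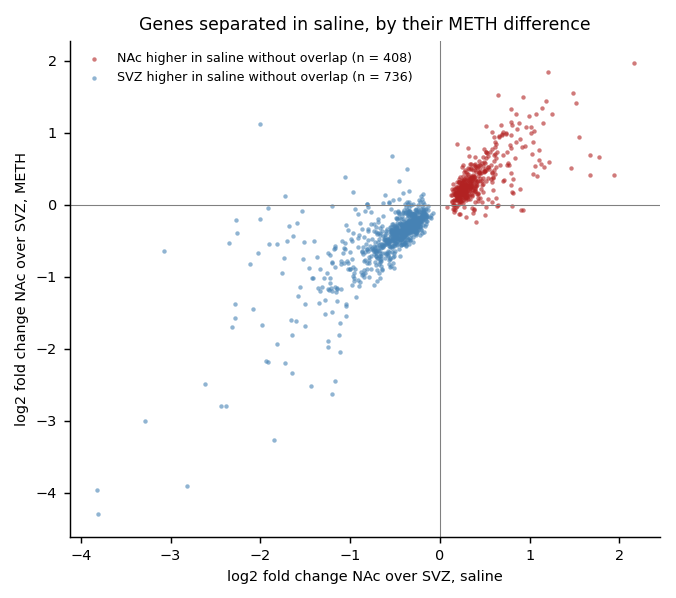
Log2 fold changes of the NAc over the SVZ in saline (x axis) and in METH (y axis) for the 408 and 736 genes whose saline groups do not overlap, red for genes higher in the NAc and blue for genes higher in the SVZ. Of these, 384 and 706 lie on the same side of 0 in METH.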

How the data were processed

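RNA of the punched regions was depleted of ribosomal RNA and sequenced in pairs of 75-base reads. The submitters' processing notes name cutadapt 2.7, FastQC 0.11.4 and STAR 2.5.2b, and per the file headers featureCounts 1.6.3 counted the reads on an Ensembl release 95 annotation of rn6, with a mapping quality of at least 10 and no use of strand. The values the authors deposited are whole read counts per gene name, 1 file per sample. Of 28914 names, 171 lie on more than 1 chromosome, and overlapping genes, antisense genes and close paralogs cannot be told apart with certainty in such counts.

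The 8 saline samples were fitted alone with edgeR 4.0.16 (R 4.3.3): genes were kept by filterByExpr, libraries were scaled by the upper quartile, and the regions were compared with the two-sided quasi-likelihood test. A gene was called at an FDR under 0.01 and a change above 2-fold. The SE is the log2 fold change over the root of F. Principal components used log2(CPM + 1). The scripts were tested on simulated data. The named genes were, in each direction, the 10 called or, as too few were called, of lowest p with separate groups, over 2-fold and at least 1 CPM, together with 9 genes of interest for these regions and, in each of 30 lists, the separate members and the 4 most abundant. Other list members named for their known roles were chosen with their values seen. The members and lists were chosen with earlier results of these data known. Where nothing says that samples came from separate animals, p-values measure only the spread between samples. Depth limits a gene near 0: a count of 0 allows up to 3 reads, for counting error only. Alternatives were TMM, DESeq2 1.42.0, the likelihood ratio test, other filters, counts thinned to 11094002 reads, fits of 16 and 32 samples, RUVr factors, a replicate block and leaving out each sample. Peg10, Sox4, Dlx6, Ccnb2, Foxj1, Cfap54, Pecam1 and Hspa1b, listed under these names, were not analysed here. Promoter sequences come from RefSeq (GRCr8) and gene coordinates from the files (rn6). Some genes that the rule names are not reported here, and counts over a list include all its tested members.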

Additional observations from a re-analysis of the deposited data

Results flagged for a closer look

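Among 164 sets of 4 values looked at, 9 held a sample far from the other 3 (by Dixon's ratio of the gap to the range), and chance gives this in about 1 in 20 sets. SVZ Sal 1 held 5 of the 9. It stood apart with 1873 CPM summed over thalamic genes, 959 CPM of Prkcd, 153.2 CPM summed over hypothalamic peptide genes and 68.5 CPM of Hsp90aa1, all above the other SVZ samples, and with 73.55 CPM summed over serotonin receptor genes, below them. NAc Sal 1 stood apart with 1701 CPM summed over dorsal striatum-enriched genes. NAc Sal 2 had 23.66 CPM summed over hypothalamic peptide genes and 1.43 CPM of Folr1, and NAc Sal 4 had 22.1 CPM of Rtn4rl2, each above the other NAc samples.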

How the results depend on the processing

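The 52 named genes chosen by p, for interest or for separate groups were followed through the alternatives. Of their differences, 951 kept their direction and side of the threshold, 29 gained a call and 3 changed sign. As the main fit called 0 genes, keeping the side of the threshold means staying uncalled. Leaving out a sample can hardly change the sign of a gene with separate groups, so part of the 951 was fixed beforehand. Of all 158 named genes tested in both fits, 29 changed sign without SVZ Sal 1. DESeq2 called 5 genes higher in the NAc and 41 in the SVZ, the likelihood ratio test 2 and 32, and the fit of 32 samples 1 and 5. At an unadjusted p under 0.05, the fit of 32 samples gave 870 genes higher in the NAc, 1 RUVr factor gave 1335, and 2 factors gave 1799 in the NAc and 1953 in the SVZ. The hypothalamic median was -1.78 with a filter of over 1 CPM and 1.293 in the fits of 16 and of 32 samples, against -0.413, each over the members that passed there. When single samples were left out, genes with separate groups ranged from 493 to 955 for the NAc and from 916 to 1246 for the SVZ, which groups of 3 against 4 make more frequent by construction. Genes at an unadjusted p under 0.05 ranged from 305 to 758 for the NAc, and from 784 to 1360 for the SVZ. List medians ranged from -0.508 to 1.682 for hypothalamic genes (-0.582 to 0.318 over the 5 members tested in all samples), -3.102 to -1.175 for ependymal genes (lowest without NAc Sal 2), -1.236 to 0.939 for pallial genes (lowest without NAc Sal 4), -2.499 to -0.007 for thalamic genes (highest without SVZ Sal 1) and -0.613 to -0.178 for mural genes (highest without SVZ Sal 1). With single samples left out, log2 fold changes ranged from -0.033 to 0.802 for Tac1 and from -0.026 to 0.663 for Drd1 (both lowest without NAc Sal 1), and from -0.976 to 2.411 for Rtn4rl2 (lowest without NAc Sal 4). Apart from the construction of the smaller groups, the cause was not tested. With the replicate number as a block 0 genes were called in either direction, 416 and 829 genes had an unadjusted p under 0.05, and the thalamic median was -0.724. Samples with the same number had correlations of their deviations of -0.143, -0.287, 0.134 and -0.129, which gave no sign of pairing by number. Such values cannot show whether these samples came from the same rat, since differences in punched tissue also enter them. Both regions were punched from the anterior part of the brain, so they may share rats, and the labels do not say which. No value of this comparison can be had within a run.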
